A study of Mus musculus with 8 samples.

Results

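The regions described here carried an H3.3-HA peak in Hira-null cells at day 0 and again at day 15, and no peak in WT cells at either day. They were selected on the presence of peaks in the 4 peak lists of the series, so their presence, scores and widths are given as a description and not as a test. All peaks were merged into 58310 non-overlapping regions, and 742 of them, or 1.27% of all, met the rule. H3.3-HA ChIP-seq was done by native chromatin immunoprecipitation with an antibody against the HA tag, after digestion of the chromatin with micrococcal nuclease. The Hira-null cells were Clone104 mESCs that lack HIRA, and the WT cells were W9.5 mESCs. Both lines carried HA-tagged H3.3. Both were taken undifferentiated (day 0) and as a mixed culture 15 days later (day 15), after embryoid bodies formed in hanging drops had been driven towards the cardiomyocyte fate. The 8 samples are 4 ChIP libraries, 1 a condition, and their inputs, so no difference has a replicate check. The Hira-null line is 1 clone, and a difference between Hira-null and WT cannot be told apart from a difference between these particular cell lines. Peaks measure H3.3 and not expression, so the labelled cell types were not checked against marker genes.

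H3.3 is the histone H3 variant that enters chromatin outside DNA replication. HIRA delivers it mainly to active genes and regulatory elements, while the DAXX and ATRX chaperones place it in repeated and silent sequence such as telomeres, pericentric repeats, endogenous retroviruses and the methylated allele of imprinted regions. Imprinted genes are expressed from only the maternal or the paternal copy, under control regions whose CpGs carry methylation on a single parental copy, and the zinc finger protein ZFP57 binds the methylated motif TGCCGC in many of them. Tandem repeats of short units (minisatellites) and interspersed repeats are common in mammalian genomes between genes and within introns.

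The reference sequence of the regions showed what many of them share. The 8 sequences below are the middle 150 bases of the stretch covered at both days, on the plus strand of mm9 (NCBIM37), for the 8 regions that stood highest in both Hira-null lists by the lower of their ranks. Capitals mark every exact copy of the 24-base word most frequent in the printed stretch, and there are none where no word of that length recurs. The first 6 hold a short unit repeated head to tail, and the last 2 hold none. All sequences printed here are those of the reference genome and not of the cells.
Ctsc, upstream (chr7:95416485-95416634): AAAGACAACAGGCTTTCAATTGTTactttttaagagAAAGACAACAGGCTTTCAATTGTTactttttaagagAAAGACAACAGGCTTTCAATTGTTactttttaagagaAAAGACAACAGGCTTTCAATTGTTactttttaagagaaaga
Dapk1, intron (chr13:60782533-60782682): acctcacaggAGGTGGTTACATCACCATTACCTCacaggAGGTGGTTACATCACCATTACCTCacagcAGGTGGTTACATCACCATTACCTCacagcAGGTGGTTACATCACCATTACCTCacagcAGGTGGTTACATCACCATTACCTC
Prune2, intron (chr19:17120350-17120499): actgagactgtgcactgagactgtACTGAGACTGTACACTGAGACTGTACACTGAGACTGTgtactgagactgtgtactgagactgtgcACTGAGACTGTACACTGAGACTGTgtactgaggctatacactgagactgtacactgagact
Apol6 and Mb, intergenic (chr15:76832541-76832690): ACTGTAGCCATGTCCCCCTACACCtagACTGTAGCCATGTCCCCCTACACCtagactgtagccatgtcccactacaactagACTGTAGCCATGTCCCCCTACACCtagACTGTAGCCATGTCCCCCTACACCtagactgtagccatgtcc
Dok5, intergenic (chr2:171116657-171116806): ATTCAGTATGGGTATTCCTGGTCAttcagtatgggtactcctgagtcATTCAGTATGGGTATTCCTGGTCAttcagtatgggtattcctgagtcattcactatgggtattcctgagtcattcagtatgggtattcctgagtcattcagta
Ripk2, intron (chr4:16052868-16053017): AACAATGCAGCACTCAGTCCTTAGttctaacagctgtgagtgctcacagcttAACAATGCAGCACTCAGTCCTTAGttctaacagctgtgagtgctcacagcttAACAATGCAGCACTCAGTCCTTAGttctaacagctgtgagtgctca
Ccne2, upstream (chr4:11111458-11111607): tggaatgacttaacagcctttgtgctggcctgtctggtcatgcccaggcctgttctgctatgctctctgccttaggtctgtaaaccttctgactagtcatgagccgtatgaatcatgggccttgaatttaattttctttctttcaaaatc
Tdrd12, intron (chr7:36313878-36314027): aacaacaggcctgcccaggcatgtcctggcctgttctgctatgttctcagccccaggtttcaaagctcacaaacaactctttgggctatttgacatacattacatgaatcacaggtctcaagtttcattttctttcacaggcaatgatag

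A second set lies at imprinted genes. The 5 stretches below are the 150 bases of each region that hold the most TGCCGC, with that motif in capitals on either strand (read GCGGCA on the minus strand). They were chosen after their values were seen, and at least 91.8% of the 24-base words of each of these 5 regions occurred once in the genome.
Plagl1, past the start site (chr10:12811012-12811161): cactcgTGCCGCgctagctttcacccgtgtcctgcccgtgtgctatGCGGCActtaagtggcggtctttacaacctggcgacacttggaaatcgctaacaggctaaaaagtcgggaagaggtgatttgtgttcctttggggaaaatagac
Peg10 and Sgce, past the Peg10 start site (chr6:4697924-4698073): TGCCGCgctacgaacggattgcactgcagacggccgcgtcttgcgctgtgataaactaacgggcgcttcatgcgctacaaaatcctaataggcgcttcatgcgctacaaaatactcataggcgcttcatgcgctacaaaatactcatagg
Airn and Igf2r, inside both genes (chr17:12935224-12935373): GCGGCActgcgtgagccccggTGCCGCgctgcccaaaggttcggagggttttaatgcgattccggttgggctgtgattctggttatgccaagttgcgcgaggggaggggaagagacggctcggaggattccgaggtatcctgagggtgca
Inpp5f, intron (chr7:135831370-135831519): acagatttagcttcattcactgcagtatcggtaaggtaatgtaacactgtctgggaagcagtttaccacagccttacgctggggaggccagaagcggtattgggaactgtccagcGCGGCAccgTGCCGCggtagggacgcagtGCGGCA
H19, upstream (chr7:149767561-149767710): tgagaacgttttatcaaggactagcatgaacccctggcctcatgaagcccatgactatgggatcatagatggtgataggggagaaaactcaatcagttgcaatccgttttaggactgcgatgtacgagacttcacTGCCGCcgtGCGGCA

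Another set consists of regions that resemble each other although they lie on different chromosomes. The stretches below are the middle 150 bases of the region with the most close relatives in each of the 3 largest groups of such regions, and of a group of 7 confined to 74.7 kb of chromosome 8. CCGCGC would stand in capitals, and none of these stretches holds it.
Group of 90 regions, near Jmy (chr13:94294616-94294765): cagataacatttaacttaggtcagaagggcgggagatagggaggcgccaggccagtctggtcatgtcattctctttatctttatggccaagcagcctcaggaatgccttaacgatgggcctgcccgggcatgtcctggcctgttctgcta
Group of 58 regions, near Klhdc7a (chr4:139513784-139513933): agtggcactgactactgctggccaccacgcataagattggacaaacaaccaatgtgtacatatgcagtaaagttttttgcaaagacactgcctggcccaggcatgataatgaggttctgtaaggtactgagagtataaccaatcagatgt
Group of 31 regions, near Mcpt1 (chr14:56605488-56605637): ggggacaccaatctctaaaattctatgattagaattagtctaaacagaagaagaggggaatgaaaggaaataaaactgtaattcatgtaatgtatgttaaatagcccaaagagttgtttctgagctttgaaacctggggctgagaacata
Group of 7 regions, near Rhou (chr8:126125197-126125346): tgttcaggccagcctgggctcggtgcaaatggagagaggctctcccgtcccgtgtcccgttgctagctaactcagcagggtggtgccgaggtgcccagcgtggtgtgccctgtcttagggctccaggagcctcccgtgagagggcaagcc

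In Hira-null cells, 1605 regions had a peak at both days, and 742 of these, or 46.2% (95% Clopper-Pearson interval 43.8 to 48.7%, which covers counting error only, as do all intervals given here), had no WT peak. By the same measure, 80.5% of the 5442 WT both-day regions had no Hira-null peak. Of all Hira-null regions, 66.25% at day 0 and 62.84% at day 15 had no WT peak. The 742 regions held 745 peaks of the Hira-null day 0 list (4.21% of 17706) and 770 peaks of the Hira-null day 15 list (10.5% of 7332). They made up 6.35% of the 11680 day 0 regions without WT and 16.98% of the 4370 day 15 regions without WT. In 718 of them each day had 1 peak. The day 15 peak lay wholly inside the day 0 peak in 452 regions, the reverse held in 68, and the day 0 peak was the wider in 601. Median region width was 1376 bp (568 to 6994 bp), against 1110 bp over all regions. A both-day region joins a peak of each day, so all regions are not a like set in width. The median was 2274 bp in Hira-null both-day regions with WT and 1656 bp in regions found only in WT at both days.

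The score of the peak caller is a scaled negative log10 of the peak's p-value, it grows with sequencing depth, and the depth of the libraries is unknown, so scores were read within a list. At day 0 the median score of the regions was 112 (quartiles 77.0 and 175), against 122 over all Hira-null day 0 peaks. At day 15 it was 110.4 (quartiles 70.5 and 199), against 91.7 over all Hira-null day 15 peaks. The regions therefore stood slightly below the middle of the day 0 list and above the middle of the day 15 list, with median percentiles of 46.1 and 60.02. The scores of the 2 days barely followed each other across the 742 regions (Spearman's rho 0.037, Pearson's r 0.24, both over regions of the same pair of libraries). Both scores reached 100 in 242 regions, the day 0 score alone in 187, the day 15 score alone in 171 and neither in 142. Every list begins at a score of 50, so the absence of WT means that no peak passed the authors' threshold and not that H3.3 was absent.

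**Figure D1:**
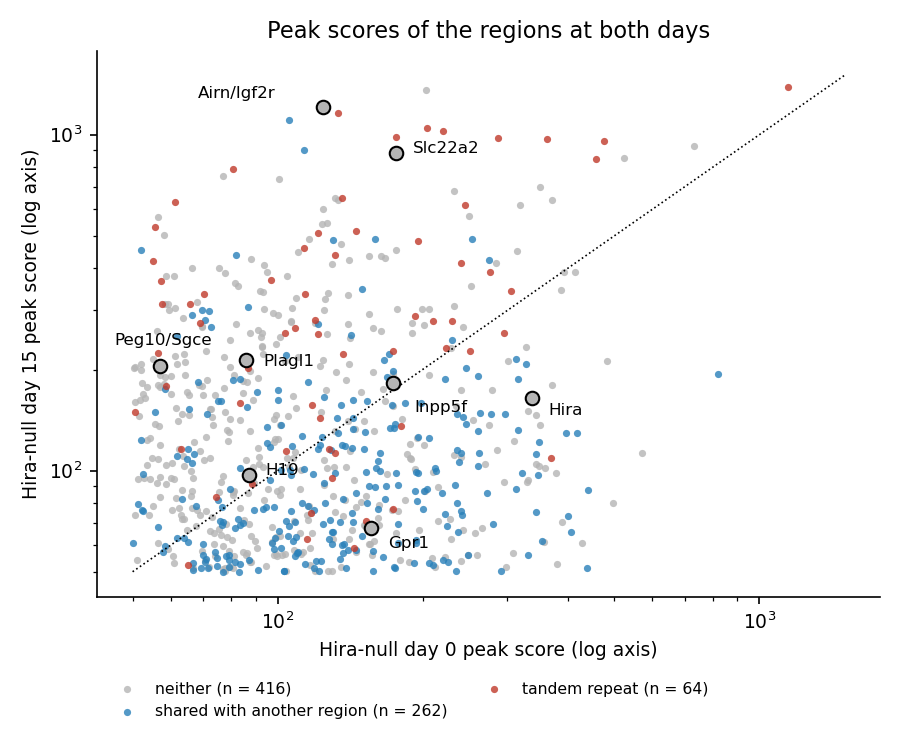
Peak score of each of the 742 regions in Hira-null cells at day 0 (x axis) and at day 15 (y axis), both on log axes, with the line of equal scores dotted. Red points are tandem repeats, blue points share sequence with another of the 742 regions, grey points do neither, and labelled points with black rims lie at imprinted genes or in Hira. Red points lie mostly above the line (51 of 64) and blue points mostly below it.

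Distance from WT peaks varied widely. The nearest WT peak of either day lay at a median of 19.5 kb (0.009 to 1564 kb). It lay within 1 kb of 47 regions and within 10 kb of 267, and it was over 100 kb away from 112. At the edge of the rule, the 5 regions closest to a WT peak were 9, 14, 31, 131 and 148 bp away from it. The 5 Hira-null both-day regions that just failed the rule shared 5, 86, 138, 179 and 205 bp with a WT peak. The first of these (chr7:150422713-150425864) had Hira-null scores of 56.2 at day 0 and 246 at day 15 and a WT score of 122. The region 9 bp from a WT peak (chr13:107909379-107910381) had scores of 141 at day 0 and 248 at day 15. The region farthest from any WT peak, in an intron of Pdk3 on the X chromosome (chrX:91048443-91049620), had scores of 91.1 and 189.

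The region with the highest score at each day was a tandem repeat. It lay 9.87 kb upstream of Ctsc, which encodes the lysosomal protease cathepsin C (chr7:95414805-95418639), with scores of 1149 at day 0 and 1390 at day 15. It ranked 36th in the day 0 list and 72nd in the day 15 list, and the nearest WT peak was 896 bp away. The commonest step between copies of a 24-base word in it was 37 bp, though not every copy in the stretch printed above is spaced so, and the most frequent 24-base word stood 83 times in the region. An intron of Dapk1, a kinase of programmed cell death (chr13:60780907-60784109), scored 732 and 924, with a step of 29 bp and no WT peak within 53.8 kb. An intron of Prune2 (chr19:17119172-17122110) scored 524 and 850.2, with a step of 13 bp. The Dapk1 and Prune2 regions were repeated over 31.35% and 44.6% of their places. Both shares are under the 50% set for an array, so these 2 regions are not counted among the arrays below.

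Besides the Ctsc region, several arrays (repeated over at least 50% of their places) ranked high in the day 15 list and lower in the day 0 list. The widest of them covered 6377 bp with its midpoint 25.9 kb upstream of Smurf2, a ubiquitin ligase gene (chr11:106804772-106811148), and scored 133 at day 0 (rank 8171 of 17706) and 1159 at day 15 (rank 113 of 7332). In that region 96.2% of all places held a 24-base word found at least 3 times within it, the step was 53 bp, and the ratio of observed to expected CpG was 0.0025. Arrays in an intron of Nsmce2, a SUMO ligase (chr15:59262843-59266981), and in an intron of Mtap6, which encodes a microtubule-associated protein (chr7:106444937-106448743), scored 176 and 286 at day 0 and 985 and 976 at day 15. A region near Foxd4 (chr19:24989155-24994018) scored 55.6 and 529.6. An array in an intron of Nsun4, an RNA methyltransferase gene (chr4:115717294-115719385), scored 204 and 1049. The region near Dmap1 (chr4:117379484-117381178), repeated over 45.2% of its places, scored 203 and 1354. Among the 10 regions highest at day 15, those at Airn and in an intron of Gm10410 (105 at day 0 and 1104 at day 15) held no repeated unit.

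Of the regions highest at day 0, some also ranked high at day 15 and others did not. The widest region of all, 6994 bp in an intron of Mid1, a ubiquitin ligase gene (chrX:166407609-166414602), scored 569.8 at day 0 (rank 500 of 17706) and 113 at day 15 (rank 2857 of 7332). A region far upstream of Epha7, an ephrin receptor gene (chr4:28338756-28342920), scored 497 and 80.1, and a region near Eepd1 (chr9:25661182-25664110) scored 441 and 87.6. The region in an intron of Ripk2, which encodes a kinase of innate immune signalling, scored 483 and 212 (ranks 910 and 1361). The region upstream of the cyclin E2 gene Ccne2 (chr4:11109036-11113105) stood high at both days, with 414 and 390.2, and a WT peak lay 0.68 kb away.

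To measure this over all regions, a tandem repeat was called where at least 50% of the places in 1 kb around the midpoint held a 24-base word found 3 or more times in that stretch. This held for 89 of the 742 regions, or 12.0% (9.74 to 14.55%). It held for 8.69% (6.90 to 10.8%) of the Hira-null both-day regions that also had a WT peak, for 3.004% of the regions found only in Hira-null day 15 and for 0.539% of those found only in Hira-null day 0. It held for 0 of 4382 regions found in WT at both days and never in Hira-null, an upper bound of 0.0842%, and for 0.652% of all regions. In windows of 1 kb lying 10 kb to each side of the 742 regions it held for 3 of 1483, or 0.202%. The interval of the 742 regions overlapped that of the both-day regions with WT, and lay above those of the other sets.

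**Figure D2:**
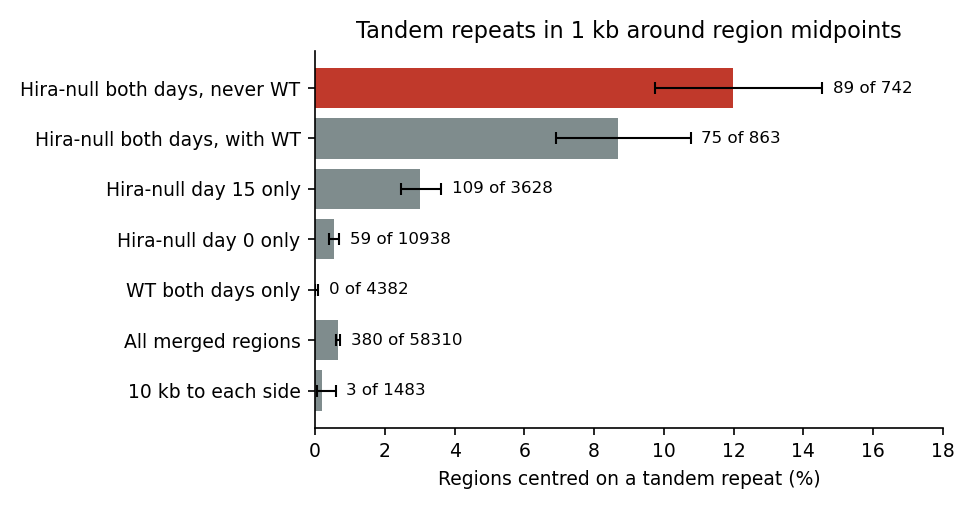
Share of regions whose central 1 kb is mostly a tandem repeat, in percent, with 95% Clopper-Pearson intervals, for the 742 regions (red) and for other sets of merged regions (grey). The 742 regions stand at 12.0%, the Hira-null both-day regions with WT at 8.69%, all regions at 0.652% and the regions found only in WT at both days at 0.

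Measured over the whole region, 64 of the 742 were arrays. Their median day 15 score was 279.7, against 104 in the other 678, and their median day 0 score was 129, against 109. The day 15 score was the higher in 51 of the 64 arrays (79.7%) and in 313 of the other 678 (46.2%). Arrays made up 10 of the 20 regions with the highest day 15 score and 3 of the 20 with the highest day 0 score. Over the 742 regions the share of repeated places had a Spearman's rho of 0.35 and a Pearson's r of 0.43 with the day 15 score, and of -0.0043 and 0.074 with the day 0 score, over regions that share their libraries. The step between copies had a median of 37.5 bp (quartiles 27 and 49.25 bp). Arrays lay in introns in 33 cases, among them regions in Fhit, Kcnb2, Thada, Snx9 and Ide, and in distal intergenic sequence in 27.

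Sequence shared between regions was more frequent than arrays. The stretches covered at both days were aligned with each other, and 273 of the 742 regions (36.8%) matched another of them over at least 300 bp at 90% identity or more. They fell into 31 groups, of which 16 were pairs and the largest 3 held 90, 58 and 31 regions on 19, 19 and 16 chromosomes. The same measure was not computed for other sets, so nothing particular to these regions can be read from it. At least 50% of words occurred 10 or more times in the genome in 20.4% of the 742 regions. The same held for 45.5% of regions found only in Hira-null day 0, 15.5% of Hira-null both-day regions with WT and 13.7% of all regions. At 80% identity 330 regions (44.5%) had a partner. Which repeat families these are was not analysed here, since no repeat annotation was used. Raw scores of the days are on scales of their own, so counts of regions with the higher score at a day set the kinds of region beside each other and show no change between days. The group of 90 had median scores of 174 at day 0 and 116 at day 15, with the day 0 score higher in 69 regions. The group of 58 had 107 and 60.7, higher at day 0 in 51, and the group of 31 had 136 and 87.2, higher at day 0 in 24. Tdrd12, a gene of the piRNA pathway, held a region of the first group in an intron (chr7:36312316-36316414), with scores of 821 at day 0 and 194 at day 15 and the nearest WT peak 1136 kb away.

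In all, 64 regions were arrays, 262 shared sequence with another region without being an array, and 416 did neither. The 262 lay in distal intergenic sequence in 74.8% of cases, the 416 in 54.3% and the 64 arrays in 42.2%. The day 15 score was the higher in 27.1% of the 262, in 58.2% of the 416 and in 79.7% of the 64.

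Much of the sequence was present in the genome more than once. Of the 24-base words read end to end along a region, a median of 56.5% occurred once in the genome and 23.2% occurred at least 10 times. The same medians were 35.7% and 43.2% in regions found only in Hira-null day 0, 83.3% and 4.76% in those found only in Hira-null day 15, 66.3% and 17.5% in Hira-null both-day regions with WT, 95.3% and 1.96% in WT both-day regions without Hira-null, and 92.5% and 3.12% over all regions. At least 90% of words were unique in 56 of the 742 regions (7.55%), against 55.1% of all regions. The share was 10.7% in regions found only in Hira-null day 0, 40.6% in those found only in Hira-null day 15 and 13.4% in Hira-null both-day regions with WT. How reads that matched several places were placed is not given in the sources used here, and its part in these peaks was not tested.

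Base composition set the 742 regions apart very little. Median GC content was 44.1%, against 44.0% over all regions and 43.9% in windows 10 kb to each side. The median ratio of observed to expected CpG was 0.222, against 0.214 over all regions and 0.327 in regions found only in Hira-null day 0. Motifs were searched on both strands of the 1 kb around each midpoint. CCGCGC stood in 8.895% of the 742 regions (6.95 to 11.2%) and in 4.02% of all regions, and 33 of the 66 regions with it belonged to the 3 largest sequence groups. CA repeated 8 times in a row stood in 9.16%, against 5.98% of all regions and 11.1% of the windows to each side. TGCCGC stood in 6.33%, against 11.1% of all regions and 7.28% of the windows to each side. It stood in 6.95% of regions found only in Hira-null day 15 and 7.88% of Hira-null both-day regions with WT. The share was 18.9% in regions found only in Hira-null day 0. The telomeric unit TTAGGG repeated 2 times stood in none (upper bound 0.496%), against 2.65% of regions found only in Hira-null day 15 and 0.250% of all regions. GA repeated 8 times stood in 1.62%, against 2.45% of all regions, GGAA repeated 4 times in 0.404%, against 0.472%, and AATAAA repeated 2 times in 0.135%, against 0.959%.

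Most of the regions lay away from genes. Midpoints fell in distal intergenic sequence in 60.5% (56.9 to 64.05%), against 73.1% of regions found only in Hira-null day 0, 53.4% of those found only in Hira-null day 15, 52.5% of Hira-null both-day regions with WT, 42.4% of all regions, 20.7% of regions found only in WT at both days and 57.4% of the genome. The share of the 742 regions thus lay between those of the other Hira-null sets. Introns held 31.9%, against 35.4% of the genome, sequence up to 3 kb past gene ends held 3.77%, against 2.30%, and promoters (3 kb upstream of a start site) held 2.56%, which is 1.00 times the genome share. Sequence up to 3 kb past gene ends held 5.1% of all regions and 6.6% of regions found only in WT at both days. It held 2.08% of regions found only in Hira-null day 0, 8.46% of those found only in Hira-null day 15 and 8.34% of Hira-null both-day regions with WT. The 5' UTR held none of the 742 (upper bound 0.496%). Only 9 regions (1.21%) lay within 1 kb of a start site, against 0.448% of regions found only in Hira-null day 0, 1.27% of those found only in Hira-null day 15, 1.74% of Hira-null both-day regions with WT, 4.20% of all regions and 9.13% of regions found only in WT at both days. Within 1 kb of a gene end lay 12 (1.62%), against 1.02%, 4.99%, 6.60%, 3.93% and 6.82% in the same order. The median distance to a start site was 37.3 kb.

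**Figure D3:**
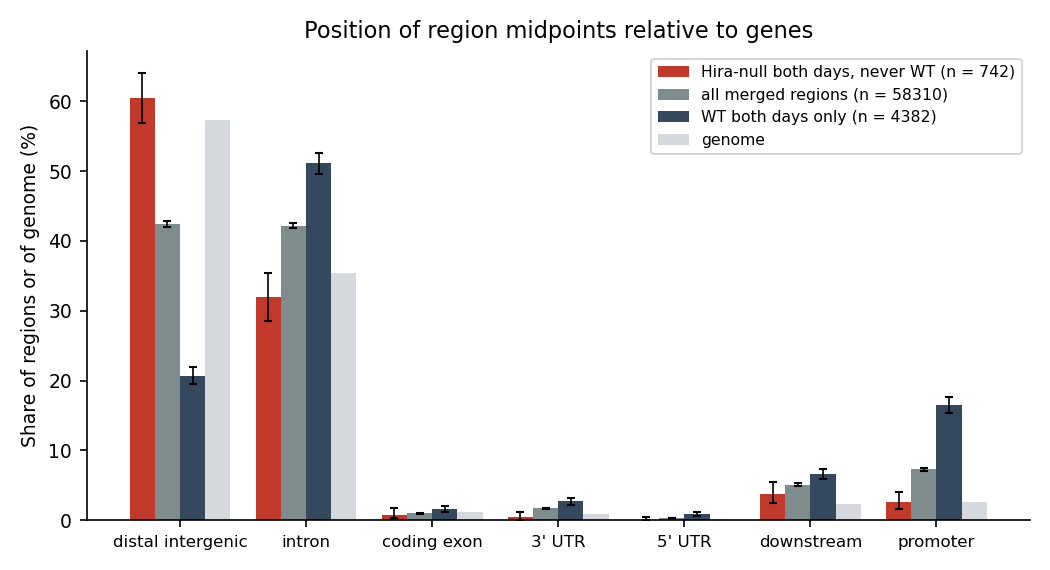
Share of region midpoints in each class of position relative to protein-coding genes, in percent, with 95% Clopper-Pearson intervals, for the 742 regions (red), all merged regions (grey), regions found only in WT at both days (dark blue) and the genome (light grey, no interval). The 742 regions follow the genome closely, with 60.5% in distal intergenic sequence against 57.4%, while the regions found only in WT at both days hold 20.7% there.

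Along the genome the regions numbered 29.0 per 100 Mb. Density was highest on chromosome 17 (47 regions, 51.1 per 100 Mb) and, among autosomes, lowest on chromosome 11 (14 regions, 11.8 per 100 Mb). On chromosome 11 only 16.7% of Hira-null both-day regions lacked a WT peak, and WT peaks were dense there, at 24.3 per Mb at day 0 and 47.9 per Mb at day 15, against 8.88 and 10.7 per Mb over the genome. On the X chromosome 10 of the 12 Hira-null both-day regions lacked WT, and WT peaks were sparse, at 0.969 and 0.148 per Mb, beside Hira-null peaks at 3.79 and 0.611 per Mb. The part of this unequal WT density in the choice of regions was not tested. Without chromosomes 8, 11, X and Y 688 regions remained.

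Most regions stood alone, with 615 more than 100 kb from any other, 52 pairs and 5 clusters of 3 or more. Other settings changed this count. It was 0 when scores had to reach 100 and also when the lists were cut to the same length, 2 with no WT peak within 10 kb, and 3 or 16 with regions joined up to 50 or 200 kb apart. The largest cluster held 7 regions in 74.7 kb by Gas8 (chr8:126064712-126139382), with 15 Hira-null day 0 and 8 day 15 peaks and no WT peak. Its 7 regions form the group of near copies printed last above. They were rich in GC (median 62.3%), their words occurred at least 10 times in the genome (median share 100%), and scores were low at both days (medians 65.1 and 67.3). All 7 lie inside Gm20388, an annotated gene of 4435 kb, which holds 13 of the 742 regions and is the only protein-coding gene with 3 or more in its window (0.00447% of genes). The other clusters lay at Arhgef10l (5 regions in 199 kb), near Rpl8, Zfp7 and Mb (4 in 107.5 kb, Mb encoding myoglobin), at Ryr1 and Catsperg1 (4 in 176.8 kb) and near Rfc3 (3 in 57.5 kb).

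Of 22367 protein-coding genes, 354 (1.58%) had at least 1 of the regions in their window, from 10 kb upstream of the start site to 200 bp past the end, and 248 (1.11%) in the gene body. These 354 genes were long, with a median of 54.8 kb against 15.4 kb over all genes, and 265 of them had a WT peak elsewhere in the window. Apart from Gm20388, 14 genes had 2 regions, among them Ryr1, the calcium release channel of skeletal muscle, Mid1, Fhit, Thada, Ncoa1, Cgnl1, Plcl1 and Sobp.

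Imprinted genes had the highest share of genes with a region among 15 gene lists. A region lay in the window of 9 of 63 imprinted genes (14.3%), beside 1.58% of protein-coding genes. The 2 shares are not of like genes. Airn and H19 among the 9 are noncoding, and the imprinted genes had a median length of 31.9 kb, against 15.4 kb over protein-coding genes. In all, 7 regions account for these 9 genes, since Peg10 and Sgce share a region and so do Igf2r and Airn. All 7 regions lay in sequence that was neither an array nor shared with another region. At Gpr1 65.2% of words occurred once in the genome. H3.3 peaks at these 63 genes were not particular to the Hira-null regions, since 12 of the genes held a region found only in WT at both days. A Hira-null peak stood in the window of 24 of the genes at day 0 and of 34 at day 15, and a WT peak in that of 25 and 33. The matching shares over all protein-coding genes are not given here. These counts therefore do not show whether imprinted genes are richer in peaks of any list than other genes.

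The region at Plagl1, an imprinted zinc finger transcription factor gene, lay 0.653 kb from its start site (chr10:12810616-12811683), with scores of 86.1 at day 0 and 213 at day 15 and no WT peak within 15.9 kb. The region 0.884 kb from the start site of Peg10, a retrotransposon-derived gene active on the paternal copy (chr6:4697591-4698789), scored 57.05 and 205 (WT peak 3.26 kb away). The region in an intron of Inpp5f, a phosphoinositide phosphatase gene (chr7:135830916-135832443), scored 174 and 182 (WT peak 4.01 kb away). These 3 had the highest ratios of observed to expected CpG among the 12 CpG-rich regions, at 0.876, 1.15 and 0.810 in the central 1 kb, and at least 91.8% of their words occurred once in the genome. A CpG-rich region was one with GC of at least 50% and a ratio of at least 0.6, met by 1.62% of the 742 regions and 0.998% of all regions. The other 9 CpG-rich regions had no TGCCGC.

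The widest imprinted region covered 4477 bp just inside Airn, the noncoding RNA that silences the paternal Igf2r, and in an intron of Igf2r, the receptor that clears IGF2 (chr17:12935049-12939525). Its score of 1212 at day 15 ranked 101st in that list, its day 0 score of 124 ranked 8722nd, and a WT peak lay 777 bp away. The Airn window held 1 Hira-null day 0 and 18 Hira-null day 15 peaks, against 1 WT day 0 and 4 WT day 15 peaks. A second region of that cluster lay in Slc22a2, an organic cation transporter gene imprinted in the same domain (chr17:12817172-12820186), and scored 176 and 880.2. It held no TGCCGC, and 99.2% of its words were unique. The gene's window held no WT peak at either day, though a WT peak lay 4.29 kb from the region. The region upstream of H19, where the control region of the Igf2 and H19 locus is known to lie (chr7:149766870-149767949), scored 87.1 and 96.9, with a WT peak 5.38 kb away. The region at Gpr1 (chr1:63231551-63233150) scored 156.5 and 67.7, with a WT peak 3.59 kb away. The Gpr1 window held 7 WT day 0 peaks and 1 WT day 15 peak.

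Counted over whole regions, which differ in width, TGCCGC stood in 6 of the 7 imprinted regions and in 77 of the other 735 (10.5%), and at least 2 copies stood in 5 of the 7 and in 10 of the 735 (1.36%). Inpp5f had 6 copies, Airn and Plagl1 4 each, and Peg10 and H19 2 each. The region with the most copies, 10, was not at an imprinted gene and lay near Fam69b (chr2:26501730-26503873). The share over whole regions was not computed for other sets. At H19 both copies overlapped a stretch (chr7:149767695-149767708) that reads CCGCNNGGNGGCAG on the minus strand, the core bound by the insulator protein CTCF. That core, searched with the H19 site in view, stood in the central 1 kb of 1 of the 742 regions and of 0.0257% of all regions. A match of letters is not a bound site.

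**Figure D4:**
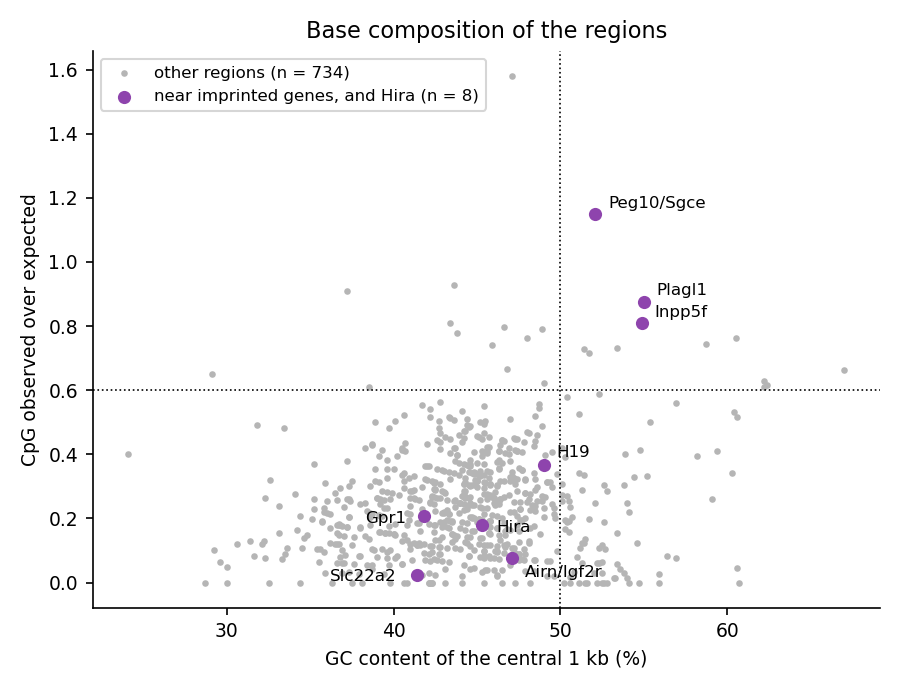
GC content in percent (x axis) and ratio of observed to expected CpG (y axis) in 1 kb around the midpoint of each of the 742 regions, with dotted lines at 50% and 0.6. Purple points are the 7 regions at imprinted genes and the region in Hira, and grey points the other 734. Peg10, Plagl1 and Inpp5f lie in the CpG-rich corner, while Airn, Slc22a2, Gpr1, H19 and Hira do not. At Airn the central 1 kb leaves out the 150 bases printed earlier, which have GC of 62% and a ratio of 0.985.

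Hira itself held a region. It was the only gene with a region among 12 genes of H3.3 and its chaperones, and the region covered 4638 bp from the intron after exon 5 of 25, across 2 exons (chr16:18908618-18913255). At day 0 it was 1 peak with a score of 337. At day 15 it was a pair of peaks of 1512 and 1562 bp with scores of 164 and 146. Of its words 95.3% were unique, and the nearest WT peak was 14.2 kb away. WT had 3 peaks in the Hira window at day 15, with scores of 79.35, 55.6 and 112, and none at day 0. The Hira-null clone carries an altered Hira, and which of its exons were altered is not given in the sources used here, so a peak here does not check the label.

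The other lists had few or no regions, beside a share of 1.58% over all protein-coding genes. At that share a short list can hold none, so nothing about its genes can be read from an absence. No region lay at 25 heterochromatin and DNA methylation genes, 21 pluripotency genes, 27 genes of cardiac transcription factors, 22 neural and synaptic genes, 15 housekeeping genes or 36 protocadherins. Of 23 sarcomere and contraction genes, 1 had a region (4.35%), namely Ryr2, the calcium release channel of the heart. The Ryr2 window held 5 and 4 Hira-null peaks and 4 and 5 WT peaks at day 0 and day 15. Of 24 smooth muscle and matrix genes, Fn1 and Cnn1, which encode fibronectin and calponin, had 1 region each (8.33% of the list). The window of Cnn1 held no WT peak. Zinc finger genes had regions in 8 of 398 (2.01%), potassium, sodium and calcium channels in 3 of 137 (2.19%) and solute carriers in 6 of 355 (1.69%). Genes matched by name as ribosomal proteins had regions in 3 of 144 (2.08%), namely Rpl8, Rps18 and Rps2-ps6, none in the gene body. The symbol Rps2-ps6 is that of a pseudogene. Olfactory and vomeronasal receptors had a region in 1 of 1438 (0.0695%).

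**Figure D5:**
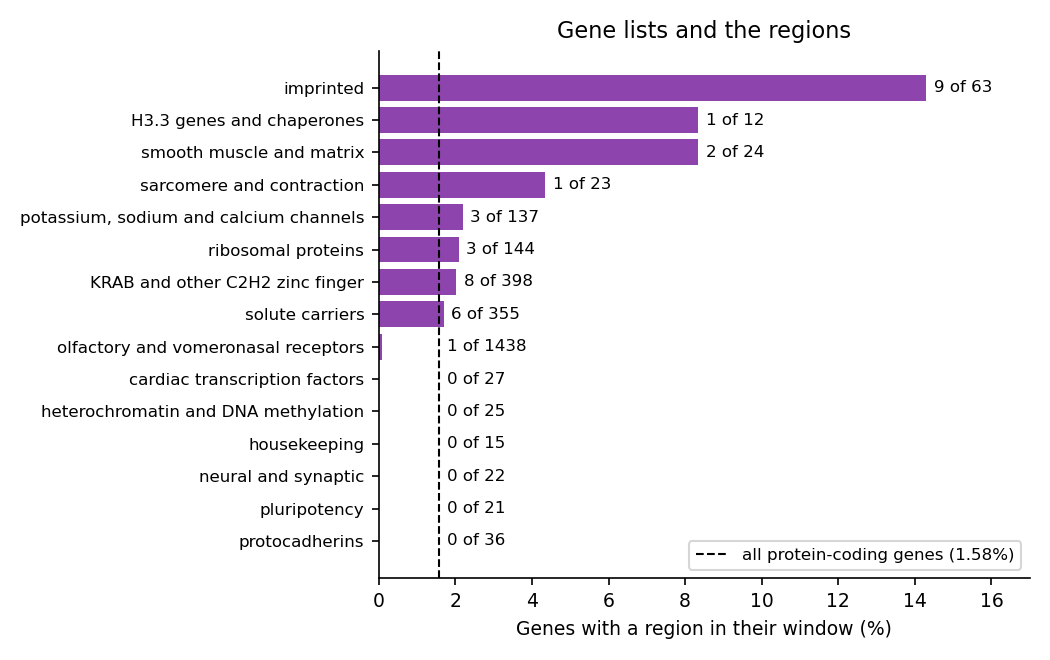
Share of the genes of each list with at least 1 of the 742 regions in their window, in percent, with the counts beside the bars and the share over all protein-coding genes (1.58%) as a dashed line. Imprinted genes stand at 14.3% (9 of 63), and 6 lists have no gene with a region.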

How the data were processed

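H3.3-HA ChIP-seq was measured in 4 conditions with 1 library each, and the samples were grouped by their labels. According to the methods, the authors aligned paired-end reads with Bowtie and removed duplicates with Samtools. The submitters' processing notes name mm9 and MACS 1.4.2. Each deposited peak list gave chromosome, start, end and a score, the scaled negative log10 p-value of the authors' peak caller. The inputs were not used here as separate data, read depth is unknown, and the settings for reads with several matches are not given in the sources used here.

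Peaks sharing at least 1 bp were merged with Python 3.11.15, numpy 2.4.6, pandas 2.3.3 and scipy 1.17.1, and the merging was checked against bedtools 2.31.1. Genes came from GENCODE M1. Bases were read from NCBIM37, 24-base words were counted on both strands, and stretches were aligned with BLAST 2.17.0. Figures used matplotlib 3.10.9. The code was tested on simulated data. With 1 library a condition, shares were given with exact intervals and no tests were run.

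The regions, gene lists and measures were chosen with earlier results of these data known. Regions were named from the 10 highest at each day, the 10 widest, the 5 nearest to a WT peak, the 5 just outside the rule, the 5 largest clusters and every region in the window of an imprinted, H3.3 chaperone or heterochromatin gene. Genes were named where their window held 3 or more regions or where they belonged to a list. Sequences came from up to 8 regions by the lower of their score ranks. Other items (the region farthest from WT, regions in arrays and in sequence groups, and genes with 2 regions) were named after their values were seen. Tandem repeats, shared sequence, CpG-rich regions and the CTCF core were also measured after the data were seen. Kcnq1ot1, Peg13, Zfp264 and Zim3 of the imprinted list had no entry in the annotation. Alternatives changed the merging, the threshold, the WT distance, the chromosomes and the repeat measure.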

Additional observations from a re-analysis of the deposited data

How the results depend on the processing

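Of 83 alternative values, 57 stayed within their limits and 26 moved beyond them. All were counts or percentages, which have no sign, so none of them could reverse. The width of the limits is not given here, so the 57 are not a measure of how stable the results were. The 742 regions became 475 with no WT peak within 10 kb, 382 with scores of at least 100 in all lists, 242 with that score in the Hira-null lists and 476 with lists of equal length, and 242 of the 382 and 245 of the 476 overlapped the 742. Other settings gave 688 to 755. The share of Hira-null both-day regions without WT, 46.2%, was 29.6%, 55.6%, 35.2% and 57.2% under these settings, 42.4% with peaks up to 1 kb apart merged and 43.3% with no WT peak within 1 kb. The 354 genes became 202, 216, 139 and 248 under the 4 settings, and the 5 clusters became 2, 0, 0 and 0. The 248 genes with lists of equal length counted as within the limits. Clusters numbered 3 when regions up to 50 kb apart were joined and 16 at 200 kb. The distal share was 56.2% with scores of at least 100 in the Hira-null lists. The tandem repeat share of 12.0% was 21.8% when 25% of places had to repeat (1.48% of all regions). It was 4.58% at 75% (0.237% of all regions) and 8.63% over whole regions. In Hira-null both-day regions with WT the share was 14.5% at 25% of places and 3.36% at 75%. These repeat alternatives and the run without chromosomes 8, 11, X and Y were chosen after seeing the data.

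No paired analysis was possible because each condition has 1 library. The depth of the libraries is unknown, so an absent WT peak and unequal list lengths cannot be told apart from unequal depth.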
